A study of Mus musculus with 12 samples.

Results

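The p53 target genes described here are Cdkn1a, Ccng1, Mdm2, Zmat3, Polk, Phlda3, Aen, Ei24, Perp and Trp53inp1, which are 10 of the 18820 genes measured. They were chosen by name as known targets of the p53 transcription factor, with earlier results of these data known. They were found on the array by the gene symbol of the platform annotation. Each of the 10 had 1 probe set naming a single gene, so no choice between probe sets was needed. RNA was measured on 12 Affymetrix Mouse Gene 1.1 ST arrays, which hold probes along the whole length of each transcript. The arrays came from primary B-cell lymphoma cultures of l-MYC;B1-8f mice on a C57BL/6J x BALB/c background, and 3 independent lymphomas numbered 2564, 2646 and 2676 were used. Every culture had been treated with TAT-Cre, a cell-permeable recombinase, to remove the B-cell receptor (BCR), and cells with and without the BCR were then grown together for 4 days and separated by sorting. Each lymphoma gave 1 array in each of 4 groups: BCR-negative cells grown with CHIR99021, BCR-positive cells grown with CHIR99021, untreated BCR-negative cells and untreated BCR-positive cells. CHIR99021 blocks the kinase GSK3. The series asks how the BCR and GSK3 activity bear on the competition between lymphoma cells with and without the receptor. All groups share the l-MYC and B1-8f alleles and the TAT-Cre treatment. The promoter that drives l-MYC and the CHIR99021 dose were not given in the sources used here.

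p53 is a transcription factor that is stabilised by DNA damage and by oncogenes such as MYC, and it raises a set of genes that stop the cell cycle, assist repair or promote cell death. Its own targets also limit it, since Mdm2 encodes the ubiquitin ligase that marks p53 for degradation. In MYC-driven B-cell lymphomas the p53 pathway is a barrier to tumour growth and is often lost, by mutation of p53 itself or by loss of its activator Arf. p53 binds DNA as a tetramer, and its consensus site is a pair of half-sites.

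The promoters of 3 target genes are shown, because Cdkn1a and Ccng1 had higher levels with CHIR99021 in all 3 lymphomas while Mdm2 did not. Each sequence is the 250 bases before the annotated transcription start from RefSeq (build GRCm38.p6), written 5′ to 3′ on the gene's strand, and the capitals mark matches to the p53 half-site consensus of 10 bases.
Cdkn1a, chr17:29090729-29090978, plus strand: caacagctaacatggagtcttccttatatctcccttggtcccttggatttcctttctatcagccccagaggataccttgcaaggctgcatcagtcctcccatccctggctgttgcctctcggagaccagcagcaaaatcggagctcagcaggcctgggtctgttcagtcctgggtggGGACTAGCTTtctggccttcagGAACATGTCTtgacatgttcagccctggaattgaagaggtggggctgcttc
Ccng1, chr11:40755287-40755536, minus strand: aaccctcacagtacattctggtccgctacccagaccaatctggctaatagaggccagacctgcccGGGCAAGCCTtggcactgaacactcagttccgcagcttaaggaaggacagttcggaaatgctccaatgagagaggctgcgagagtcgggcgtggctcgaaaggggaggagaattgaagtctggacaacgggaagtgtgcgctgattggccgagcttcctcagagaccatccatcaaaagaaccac
Mdm2, chr10:117710759-117711008, minus strand: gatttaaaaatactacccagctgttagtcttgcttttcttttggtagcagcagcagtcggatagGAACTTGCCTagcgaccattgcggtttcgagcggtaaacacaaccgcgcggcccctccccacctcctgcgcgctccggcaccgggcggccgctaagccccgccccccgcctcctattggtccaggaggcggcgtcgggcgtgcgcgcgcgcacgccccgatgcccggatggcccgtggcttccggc
The Cdkn1a sequence held GGACTAGCTT and GAACATGTCT with 12 bases between them. GAACATGTCT was followed directly by tgacatgttc, which departs from the half-site letters at its first base and so is not marked. The window of another annotated Cdkn1a start, further downstream, held no match. The Ccng1 sequence held GGGCAAGCCT, and the Mdm2 sequence held GAACTTGCCT. Promoter windows from 250 bases before to 50 bases after the start were at hand for 7 of the 10 genes, which had 10 windows because some have more than 1 annotated start. A half-site match lay in 7 of those 10 windows, against 8.36% of all 32851 mouse promoter windows. Both Aen windows overlap and hold the same site, so it is counted in each. By gene a match lay in 6 of the 7, for which no share over all genes was computed. The search covered both strands, since the half-site consensus is its own reverse complement. Ei24 had GGGCATGCCC 10 bases before its start, Polk had GAACTAGCCT 231 bases before 1 of its starts, and Aen had GGGCTTGTCC 121 bases before 1 start and 11 bases after another. The Phlda3 window held no match to these letters. These genes were picked as p53 targets, so the matches describe the sequences and are no independent evidence, and p53 binding was not measured.

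The arrays were first checked against their labels. Ighv1-72, the V segment of the B1-8 heavy chain that the Cre deletes, had log2 levels of 7.26, 8.17 and 6.56 in BCR-negative cells with CHIR99021 and 8.60, 9.12 and 7.10 in untreated BCR-negative cells (lymphomas 2564, 2646 and 2676), against 9.996 to 10.63 and 10.26 to 10.51 in the matching BCR-positive groups. All BCR-negative arrays lay below all BCR-positive arrays. The median over all probe sets lay between 4.71 and 4.92 on every array, and within a lymphoma the arrays had correlations of 0.988 to 0.997 across probe sets. Levels and differences are on the log2 scale throughout, so a difference of 1 is a doubling. Levels of different genes come from different probes and are not set against each other. Trp53, the gene for p53 itself, was not analysed here, because no probe set named it alone.

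The lymphomas differed more in some of these genes than the conditions did. The levels are shown by array in the plot of member levels. Cdkn1a, which encodes the cyclin-dependent kinase inhibitor p21, averaged 7.41 over the 4 arrays of lymphoma 2564, 9.02 in lymphoma 2646 and 6.44 in lymphoma 2676. Zmat3, a zinc-finger RNA-binding protein, averaged 7.31, 8.06 and 4.92 in the same order. The level of Zmat3 in lymphoma 2676 was below that in the other two lymphomas on every array.

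**Figure D1:**
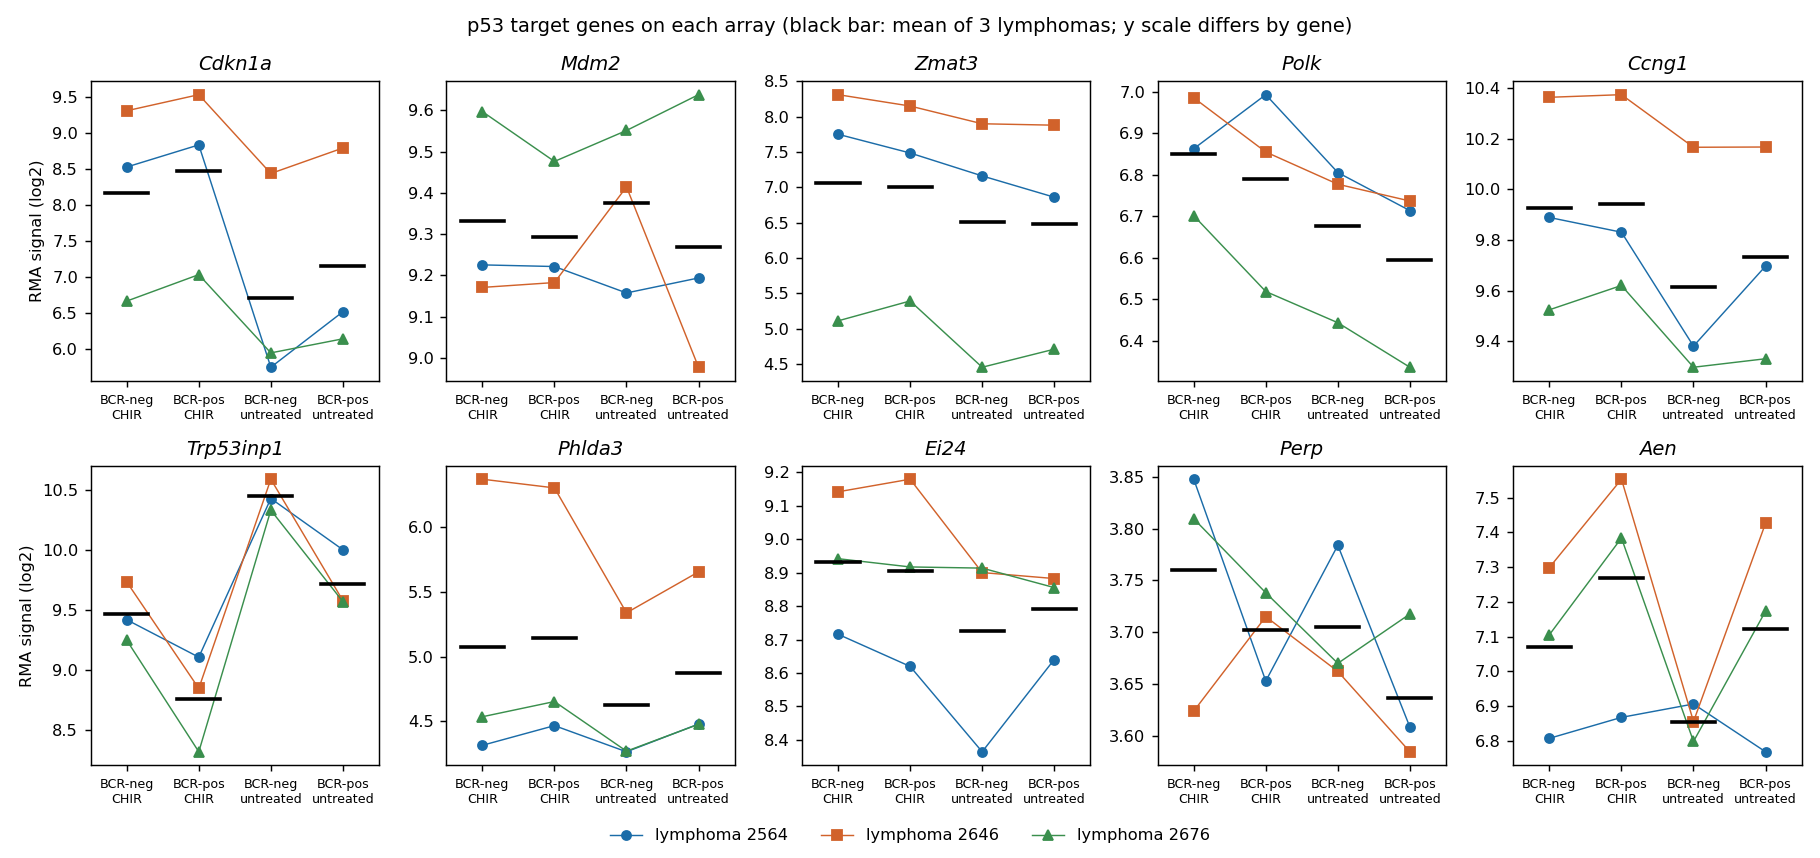
Log2 level of each of the 10 p53 target genes (y axis) on each of the 12 arrays, by group (x axis), with 1 point per array and 1 line per lymphoma. Cdkn1a lay between 6.66 and 9.54 with CHIR99021 and between 5.74 and 8.80 in untreated cells, Trp53inp1 was lower with CHIR99021 in each lymphoma, and Perp stayed between 3.58 and 3.85.

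The range between lymphoma means was 3.14 for Zmat3, 2.58 for Cdkn1a and 1.53 for Phlda3. Only 0.563%, 0.978% and 3.16% of all genes had a larger range than these 3 genes in turn, and the median range over all genes was 0.16. Phlda3, a pleckstrin-homology protein that competes with AKT for membrane lipids, averaged 5.91 in lymphoma 2646 against 4.38 in lymphoma 2564 and 4.48 in lymphoma 2676. Ccng1, which encodes cyclin G1, had a range of 0.82, with 9.46% of all genes above it. The other 6 genes had ranges of 0.09 (Perp) to 0.45 (Aen), and 23.4% to 67.2% of all genes exceeded them.

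**Figure D2:**
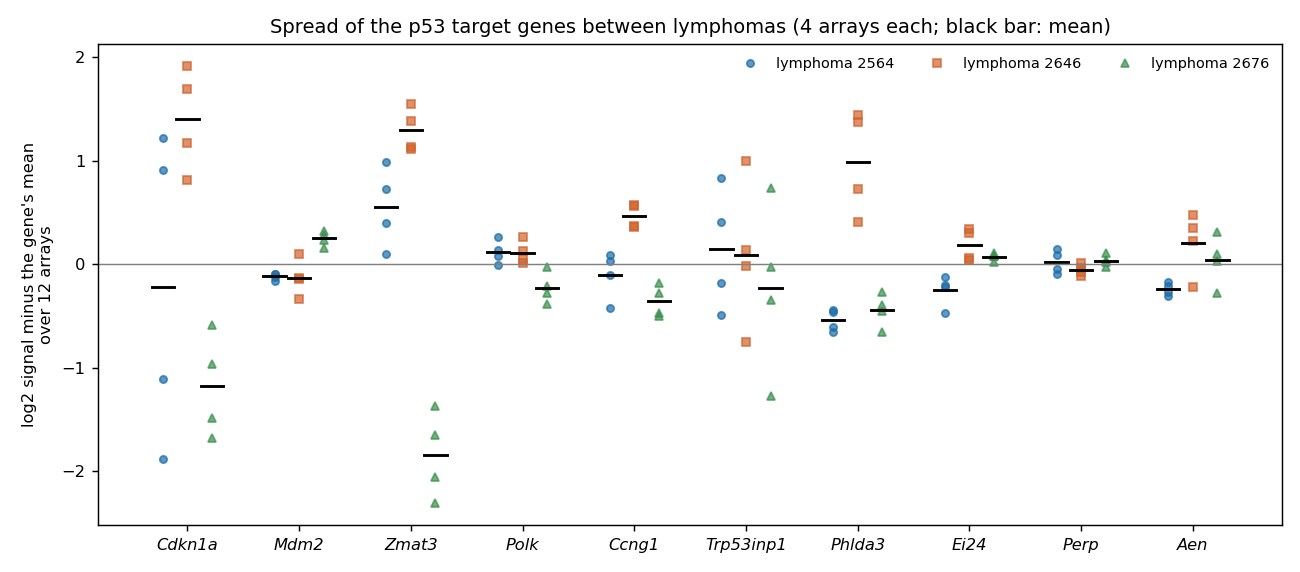
Log2 level of each p53 target gene on each array minus the gene's mean over the 12 arrays (y axis), by gene (x axis). Each lymphoma has 4 points, 1 per array, and a bar at their mean. The highest and the lowest lymphoma mean lay 3.14 apart for Zmat3, 2.58 for Cdkn1a and 1.53 for Phlda3. These ranges are past the 95th percentile of all genes, which is 1.20 and is not drawn.

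Lymphoma 2646 was highest for 6 of the 10 genes, and lymphoma 2676 was lowest for 5. Across all genes these shares were 29.9% and 32.9%. Both held for 3 of the 10 genes and 14.1% of all genes. Mdm2 was among the 7 genes without both, with means of 9.20, 9.19 and 9.57 in lymphomas 2564, 2646 and 2676. Among regulators of p53, Hipk2, a kinase that phosphorylates p53, had a range of 1.61, and Atm, the DNA damage kinase, had a range of 1.05. Cdkn2a, the locus of the p53 activator Arf, lay between 4.26 and 4.62 on all arrays. With 1 culture per lymphoma and condition these differences were given no test.

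CHIR99021 was compared with no treatment within each lymphoma, first in BCR-negative cells. Of the 10 p53 target genes, Ccng1 rose, Trp53inp1 fell and 8 did not pass the test, which was limma with lymphoma as a block and an adjusted p under 0.05 after Benjamini-Hochberg adjustment over 18820 genes. Across all genes 3.68% were called in this comparison. At an unadjusted p under 0.05 there were 7 of the 10, against 19.0% of all genes. The median difference was 0.21 for the 10 genes and 0.01 for all genes. Because the 10 genes were chosen with earlier results of these data known, these contrasts with all genes are descriptions and no independent evidence. In bulk RNA, a gene used by fewer of the cells and a gene used less by every cell cannot be told apart.

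Among the arrest genes, Cdkn1a had levels of 8.53, 9.31 and 6.66 in BCR-negative cells with CHIR99021, against 5.74, 8.44 and 5.94 in untreated BCR-negative cells. CHIR99021 cells were higher in each lymphoma, although the groups overlapped because the lymphomas start at different levels. The difference was 1.46 ± 0.386 (limma SE pooled over the 4 groups, n = 3 lymphomas, 95% interval 0.60 to 2.33), a 2.75-fold higher level. Its adjusted p of 0.0678 did not pass. Lymphoma 2564 had a difference of 2.79, against 0.87 in lymphoma 2646 and 0.72 in lymphoma 2676. Without lymphoma 2564 the difference was 0.80 and its adjusted p was 0.0149, and the adjusted p ranged from 0.0149 to 1.0 over the alternatives.

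Ccng1 had levels of 9.89, 10.36 and 9.52 in BCR-negative cells with CHIR99021, against 9.38, 10.17 and 9.30 in untreated BCR-negative cells. It was higher in each lymphoma, by 0.51, 0.20 and 0.23. The mean difference was 0.31 ± 0.0697 (SE), a 1.24-fold higher level with an adjusted p of 0.0435. That call was lost when any 1 array or any 1 lymphoma was left out, with adjusted p-values of 0.0506 to 0.229.

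Mdm2 had levels of 9.23, 9.17 and 9.60 in BCR-negative cells with CHIR99021, against 9.16, 9.41 and 9.55 in untreated BCR-negative cells. The difference was -0.04 with a 95% interval of -0.25 to 0.16 (adjusted p = 0.881). The lymphomas did not move one way, with 2646 lower and the other two slightly higher.

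Zmat3 had levels of 7.75, 8.31 and 5.11 in BCR-negative cells with CHIR99021, against 7.16, 7.90 and 4.45 in untreated BCR-negative cells. The difference was 0.55 ± 0.131 (SE), 1.47-fold, with an adjusted p of 0.0514 just outside the threshold. Every lymphoma was higher with CHIR99021, by 0.41 to 0.66. Polk, the translesion DNA polymerase kappa, had levels of 6.86, 6.98 and 6.70 with CHIR99021, against 6.80, 6.78 and 6.44 in untreated BCR-negative cells. Its difference of 0.17 ± 0.0637 did not pass (adjusted p = 0.166).

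Phlda3, Ei24, Aen and Perp did not pass the test. Phlda3 had levels of 4.32, 6.37 and 4.54 in BCR-negative cells with CHIR99021, against 4.27, 5.34 and 4.27 in untreated BCR-negative cells. Lymphoma 2646 carried most of its difference of 0.45 ± 0.168 (adjusted p = 0.176), with 1.03 there against 0.05 in lymphoma 2564 and 0.27 in lymphoma 2676. Ei24, a membrane protein of the endoplasmic reticulum, differed by 0.21 ± 0.0790 (adjusted p = 0.185), and Aen, an apoptosis-enhancing nuclease, by 0.22 ± 0.125 (adjusted p = 0.413). Without the untreated BCR-negative array of lymphoma 2564 the Aen difference was 0.41 and passed (adjusted p = 0.0225), and its adjusted p was 0.0225 to 1.0 over the other settings tried. Perp, a tetraspan membrane protein, was dim on all arrays, at 3.58 to 3.85, and differed by 0.06 (adjusted p = 0.753).

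Trp53inp1, a nuclear protein that promotes p53 phosphorylation and autophagy, went the other way. It had levels of 9.42, 9.73 and 9.25 in BCR-negative cells with CHIR99021, against 10.43, 10.59 and 10.33 in untreated BCR-negative cells. The groups did not overlap. The group means were 9.47 ± 0.246 and 10.45 ± 0.130 (SD, n = 3 each), and the difference was -0.98 ± 0.145 (SE), a fold of 0.506 with an adjusted p of 0.0115. The call was lost without lymphoma 2646 (adjusted p = 0.142) and without lymphoma 2676 (adjusted p = 0.0715), and also without the lymphoma 2564 array of CHIR99021-treated BCR-negative cells (0.075) or the lymphoma 2646 array of untreated BCR-negative cells (0.0515). The difference stayed between -1.10 and -0.86 over all the other settings tried, in which the adjusted p ranged from 0.0070 to 0.297.

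In BCR-positive cells none of the 10 passed the limma test, where 0.0744% of all genes were called. At an unadjusted p under 0.05 there were 5 of the 10, against 10.05% of all genes. The difference was positive for 9 of the 10, against 51.18% of all genes. Trp53inp1 had levels of 9.11, 8.85 and 8.32 in BCR-positive cells with CHIR99021, against 10.0007, 9.58 and 9.57 in untreated BCR-positive cells, again with no overlap. Its difference was -0.96 ± 0.145 (SE), with an adjusted p of 0.0539. It did pass when the untreated BCR-negative array of lymphoma 2564 was left out (adjusted p = 0.0435), and over the alternatives the adjusted p ranged from 0.0242 to 1.0.

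Cdkn1a had levels of 8.84, 9.54 and 7.03 in BCR-positive cells with CHIR99021, against 6.51, 8.80 and 6.14 in untreated BCR-positive cells. The difference was 1.32 ± 0.386 (SE), 2.50-fold, with an adjusted p of 0.258, and lymphoma 2564 was again the largest of the 3, at 2.32. Without lymphoma 2564 it was 0.82. Zmat3 had levels of 7.48, 8.15 and 5.39 in BCR-positive cells with CHIR99021, against 6.86, 7.88 and 4.71 in untreated BCR-positive cells, a difference of 0.53 ± 0.131 (adjusted p = 0.185). Polk and Ccng1 differed by 0.19 ± 0.0637 (adjusted p = 0.321) and 0.21 ± 0.0697 (adjusted p = 0.324). Each was higher with CHIR99021 in 3 of 3 lymphomas. Mdm2 differed by 0.02, with a 95% interval of -0.18 to 0.23 (adjusted p = 0.971). The remaining 4 genes, Phlda3, Ei24, Perp and Aen, had differences of 0.07 to 0.27 and adjusted p-values of 0.667 to 0.828.

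The CHIR99021 difference averaged over both populations was added after seeing the data. Of the 10 genes, 4 rose, 1 fell and 5 did not pass, where 7.38% of all genes were called. Cdkn1a differed by 1.39 ± 0.273 (adjusted p = 0.0183), Zmat3 by 0.54 ± 0.0929 (adjusted p = 0.0118), Ccng1 by 0.26 ± 0.0493 (adjusted p = 0.0160) and Polk by 0.18 ± 0.0450 (adjusted p = 0.0392). In each lymphoma both CHIR99021 arrays lay above both untreated arrays for all 4 of these genes. The 4 genes were picked as called by the same fit, so this is no independent evidence. Over all genes, 39.83% had an averaged difference of 1 sign in 3 of 3 lymphomas, which is a looser count. Trp53inp1 fell by 0.97 on the log2 scale, with an SE of 0.102 and an adjusted p of 0.00172. These comparisons use both populations of the same cultures, so they do not add cultures to the 3 lymphomas. The fit treats both differences of a lymphoma as independent, so the SE does not measure the spread among lymphomas. For Cdkn1a the averages were 2.56, 0.81 and 0.81 in lymphomas 2564, 2646 and 2676.

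Single lymphomas bore on this average. Without lymphoma 2564, Cdkn1a differed by 0.81 (adjusted p = 0.00273) and the calls of Zmat3 (0.0599), Ccng1 (0.0633) and Polk (0.0964) were lost. Without lymphoma 2646, Cdkn1a (0.106), Zmat3 (0.0759), Ccng1 (0.114) and Polk (0.228) lost their calls. Without lymphoma 2676, Cdkn1a (0.0656), Ccng1 (0.102) and Polk (0.193) lost theirs. Leaving out the untreated BCR-positive array of lymphoma 2564 ended the Cdkn1a call (0.0573), and leaving out the CHIR99021 BCR-negative array of that lymphoma ended those of Cdkn1a (0.0504) and Ccng1 (0.0523). Polk was called in 1 of the 15 settings that left out an array or a lymphoma. The Trp53inp1 call held in all 15, with adjusted p-values of 0.00211 to 0.0342.

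**Figure D3:**
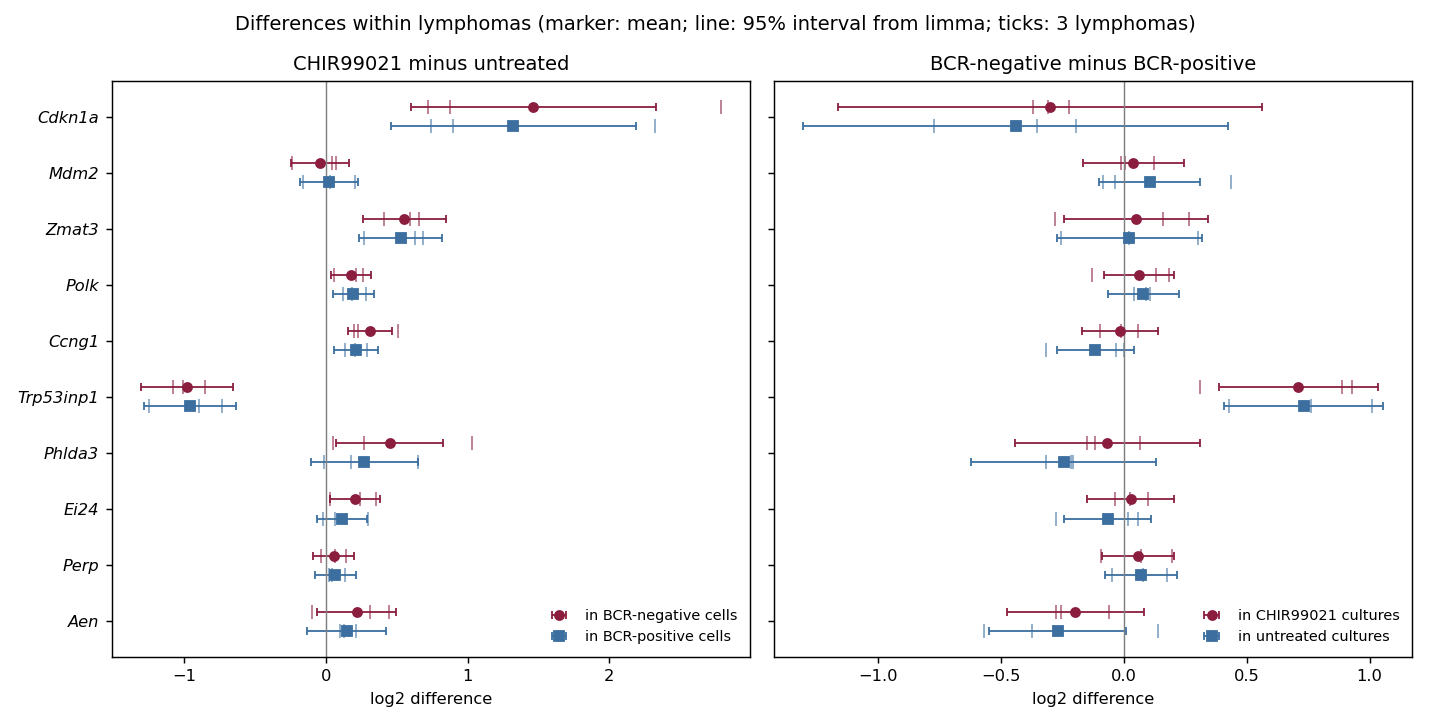
Within-lymphoma log2 differences of the 10 p53 target genes, for CHIR99021 over untreated in each population and for BCR-negative over BCR-positive cells in each culture condition. Ticks are lymphomas, markers are the mean differences and bars are 95% intervals from limma. Cdkn1a lies at 1.46 and 1.32 for CHIR99021, and Trp53inp1 lies at -0.98 and -0.96 for CHIR99021 and at 0.71 and 0.73 for BCR loss.

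BCR-negative cells were then compared with the BCR-positive cells of the same culture. In untreated cultures Trp53inp1 rose, and the other 9 of the 10 genes did not pass the test, where 4.2% of all genes were called. Trp53inp1 had levels of 10.43, 10.59 and 10.33 in untreated BCR-negative cells, against 10.0007, 9.58 and 9.57 in untreated BCR-positive cells, and the groups did not overlap. Its difference was 0.73 ± 0.145 (pooled limma SE, n = 3 lymphomas), 1.66-fold, with an adjusted p of 0.0312.

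The lymphomas differed in size, at 0.43, 1.01 and 0.76 in 2564, 2646 and 2676. The Trp53inp1 call was lost without lymphoma 2646 (0.59, adjusted p = 0.305) and without lymphoma 2676 (0.72, adjusted p = 0.154). It was also lost without either untreated array of lymphoma 2646 (adjusted p = 0.114 without the BCR-negative and 0.128 without the BCR-positive array) or of lymphoma 2676 (0.0794 and 0.0995 likewise). Without the CHIR99021-treated BCR-positive array of lymphoma 2646 the adjusted p lay at the threshold. Over all the other settings tried the difference was 0.58 to 0.89 and the adjusted p ranged from 0.0188 to 0.476.

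Cdkn1a was lower in BCR-negative cells of every untreated culture, by 0.77, 0.35 and 0.20. The mean difference of -0.44 ± 0.386 (95% interval -1.31 to 0.42) did not pass (adjusted p = 0.610). Aen had levels of 6.91, 6.86 and 6.80 in untreated BCR-negative cells, against 6.77, 7.43 and 7.17 in untreated BCR-positive cells. Its difference of -0.27 ± 0.125 did not pass (adjusted p = 0.263), and lymphoma 2564 had the opposite sign. Without lymphoma 2564 the Aen difference was -0.47 (adjusted p = 0.0225), and without the untreated BCR-negative array of that lymphoma it was -0.47 (adjusted p = 0.0128), in a range of 0.0128 to 0.936 over the alternatives. Phlda3 differed by -0.25 ± 0.168 (adjusted p = 0.485) and Ccng1 by -0.12 ± 0.0697 (adjusted p = 0.408). Mdm2, Zmat3, Polk, Ei24 and Perp differed by -0.07 to 0.10, with adjusted p-values of 0.568 to 0.960.

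With CHIR99021 in the culture, none of the 10 genes passed the limma test for BCR loss, where 0.0159% of all genes were called, and 1 of the 10, Trp53inp1, had an unadjusted p under 0.05, against 8.65% of all genes. Trp53inp1 had levels of 9.42, 9.73 and 9.25 in BCR-negative cells with CHIR99021, against 9.11, 8.85 and 8.32 in BCR-positive cells with CHIR99021, and the groups did not overlap. Its difference was 0.71 ± 0.145 (SE), 1.63-fold, with an adjusted p of 0.385. Cdkn1a was lower in BCR-negative cells in 3 of 3 lymphomas, by 0.31, 0.22 and 0.37, and its adjusted p was 0.870. Aen differed by -0.20 ± 0.125 (adjusted p = 0.677), and the other 7 genes lay between -0.07 and 0.06.

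The BCR difference averaged over both culture conditions was also added after seeing the data. Trp53inp1 rose by 0.72 ± 0.102 (SE, adjusted p = 0.00913), and 6.63% of all genes were called. It was 1 of 10 genes called. The call was lost without lymphoma 2646 (adjusted p = 0.155) and without lymphoma 2676 (adjusted p = 0.132). Without lymphoma 2564, 3 of the 10 genes were called: Trp53inp1 at 0.90 (adjusted p = 0.00465), Cdkn1a at -0.29 (adjusted p = 0.0233) and Aen at -0.37 (adjusted p = 0.0113). Aen was also called without the untreated BCR-negative array of that lymphoma, at -0.33 (adjusted p = 0.00772). Over the other settings the adjusted p of Cdkn1a reached 0.972 and that of Aen 0.787. The untreated BCR-negative arrays enter both BCR loss in untreated cultures and CHIR99021 in BCR-negative cells, so the opposite signs of Trp53inp1 in those comparisons share arrays. The averaged comparisons use all 12 arrays.

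Whether CHIR99021 acted differently in the 2 populations was tested as an interaction, which is the CHIR99021 difference in BCR-negative cells minus that in BCR-positive cells. None of the 10 genes passed this limma test, none had an unadjusted p under 0.05, and 0% of all genes were called, with 990 genes at an unadjusted p under 0.05. The interaction of Trp53inp1 was -0.02 with a 95% interval of -0.48 to 0.43, and that of Zmat3 was 0.03 with an interval of -0.39 to 0.44. For Ccng1 it was 0.10, between -0.12 and 0.32. For Cdkn1a it was 0.14 with an interval of -1.08 to 1.36, the widest of these 4. These intervals do not show that the populations respond alike.

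Other genes of the pathway were counted from 3 lists of known genes. Among 37 other p53 targets, 4 rose with BCR loss in untreated cultures and none fell, where 4.2% of all genes were called. Of the 37, 15 had an unadjusted p under 0.05, against 20.52% of all genes. The median difference of the list was 0.13. Gadd45a, a growth arrest and DNA damage gene, had levels of 6.17, 7.32 and 7.04 in untreated BCR-negative cells, against 5.71, 6.02 and 6.15 in untreated BCR-positive cells. It differed by 0.88 ± 0.167 (SE, adjusted p = 0.0280). Btg2, an antiproliferative gene, had levels of 10.65, 11.01 and 10.54 in untreated BCR-negative cells, against 10.19, 9.70 and 9.13 in untreated BCR-positive cells, and differed by 1.06 ± 0.248 (adjusted p = 0.0464). In both genes the groups did not overlap. The other 2 were Epha2, an ephrin receptor, at 0.67 ± 0.112 (adjusted p = 0.0206) and Ercc5, a nuclease of nucleotide excision repair, at 0.43 ± 0.0904 (adjusted p = 0.0351).

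With CHIR99021 in BCR-negative cells, where 3.68% of all genes were called, 1 of the 37 other targets fell and none rose. It was Gadd45a, with levels of 5.54, 6.12 and 6.73 in BCR-negative cells with CHIR99021, a difference of -0.71 ± 0.167 (adjusted p = 0.0495). Tigar, a regulator of glycolysis, differed by 0.46 ± 0.115 (adjusted p = 0.0583). In this comparison 14 of the 37 had an unadjusted p under 0.05, against 19.0% of all genes. Differences were positive for 16 and negative for 21 of the list, against 54.18% of all genes positive. The median of this list was -0.05, against 0.21 for the 10 genes described above. In BCR-positive cells with CHIR99021 none of the 37 passed the limma test, and 6 had an unadjusted p under 0.05, against 10.05% of all genes. The 2 with the smallest p were Ppm1d at -0.27 (adjusted p = 0.119) and Ckap2 at -0.28 (adjusted p = 0.200). For BCR loss under CHIR99021 none passed and 3 had an unadjusted p under 0.05, against 8.65% of all genes. They were led by Epha2 at 0.48 (adjusted p = 0.424) and Gadd45a at 0.65 (adjusted p = 0.457).

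With CHIR99021 averaged over both populations, where 7.38% of all genes were called, 2 of the 37 other targets rose, 4 fell and the median was -0.04. Sesn2, a stress-induced inhibitor of the growth kinase mTORC1, rose by 0.66 ± 0.155 (SE, adjusted p = 0.0346), and Tigar rose by 0.32 ± 0.0813 (adjusted p = 0.0438). The genes that fell were Gadd45a at -0.60 ± 0.118 (adjusted p = 0.0187), the polo-like kinase gene Plk2 at -0.79 ± 0.186 (adjusted p = 0.0344), the phosphatase gene Ppm1d at -0.23 ± 0.0395 (adjusted p = 0.0121) and the survival gene Bcl2l1 at -0.41 ± 0.105 (adjusted p = 0.0466). Ppm1d encodes a phosphatase that opposes p53 signalling. All 6 had the same sign in 3 of 3 lymphomas, against 39.83% of all genes, but they were picked as called by the same fit. Of the 37, 12 had an unadjusted p under 0.05, against 20.81% of all genes. With BCR loss averaged over both culture conditions the 4 genes that rose in untreated cultures rose again, at 0.29 to 0.89. They were Btg2, Gadd45a, Epha2 and Ercc5, and 6.63% of all genes were called there. An unadjusted p under 0.05 was found there for 14 of the 37, against 22.55% of all genes.

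Of 24 regulators of p53, 1 fell with BCR loss in untreated cultures, where 4.2% of all genes were called, and none rose. That was Chek2, a DNA damage checkpoint kinase, at -0.43 ± 0.0977 (adjusted p = 0.0427), and the related kinase Chek1 differed by -0.44 (adjusted p = 0.0567). None of the 24 passed for CHIR99021 in BCR-negative cells, where 5 had an unadjusted p under 0.05, a share of 20.8% against 19.0% of all genes. The 2 with the smallest p were Chek1 at 0.37 (adjusted p = 0.0959) and Ppp1r13l, an inhibitor of p53, at 0.23 (adjusted p = 0.111). In BCR-positive cells with CHIR99021 none passed and 1 had an unadjusted p under 0.05, against 10.05% of all genes. It was Ppp1r13l at 0.37 (adjusted p = 0.105), followed by Trp53bp2, a p53-binding protein, at -0.17 (adjusted p = 0.523). For BCR loss under CHIR99021 none passed and 1 had an unadjusted p under 0.05, against 8.65% of all genes. The smallest p-values were those of Ppp1r13l at -0.22 (adjusted p = 0.508) and Cdkn2a at 0.12 (adjusted p = 0.640). In the averaged comparisons Ppp1r13l rose with CHIR99021 by 0.30 (adjusted p = 0.0114) and Chek2 fell with BCR loss by 0.27 (adjusted p = 0.0475). No other regulator passed there, where 7.38% (CHIR99021) and 6.63% (BCR loss) of all genes were called.

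The third list holds 17 cell cycle genes that p21 represses through the DREAM complex. None passed for BCR loss in untreated cultures, where 6 of 17 had an unadjusted p under 0.05, against 20.5% of all genes. In this list 15 were negative and 2 positive, against 49.0% of all genes positive, and the median was -0.15. Mybl2, a transcription factor of dividing cells, differed by -0.32 (adjusted p = 0.0826) and Mcm5, a replication helicase subunit, by -0.25 (adjusted p = 0.0925). With CHIR99021 in BCR-negative cells, where 3.68% of all genes were called, 1 rose and none fell. The gene that rose was Mybl2 at 0.46 ± 0.0930 (adjusted p = 0.0323). E2f1 differed by 0.36 (adjusted p = 0.0525), and the median was 0.09. In BCR-positive cells with CHIR99021 none passed, 1 had an unadjusted p under 0.05 (against 10.05% of all genes), and the median was -0.08. The mitotic cyclin gene Ccnb2 differed by -0.25 (adjusted p = 0.232) and Mybl2 by 0.21 (adjusted p = 0.497). For BCR loss under CHIR99021 none passed, 1 had an unadjusted p under 0.05 (against 8.65% of all genes), and the median was 0.03. Ccnb2 differed by 0.20 (adjusted p = 0.522) and Cdc25c, a mitotic phosphatase, by 0.17 (adjusted p = 0.650). With CHIR99021 averaged over both populations Mybl2 was the 1 gene of the list that passed, where 7.38% of all genes were called. It rose by 0.33 (adjusted p = 0.0186). None of the list passed in the averaged BCR comparison, where 5 had an unadjusted p under 0.05, against 22.6% of all genes.

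The interaction was not passed by any gene of the 3 lists. At an unadjusted p under 0.05 there were 2 other targets, 2 regulators and 0 cell cycle genes, against 5.26% of all genes. The smallest p-values belonged to Ckap2 (0.40) and Eda2r (-0.21), Chek1 (0.50) and Chek2 (0.32), and E2f1 (0.26) and Top2a (0.29), with an adjusted p of 0.928 each.

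**Figure D4:**
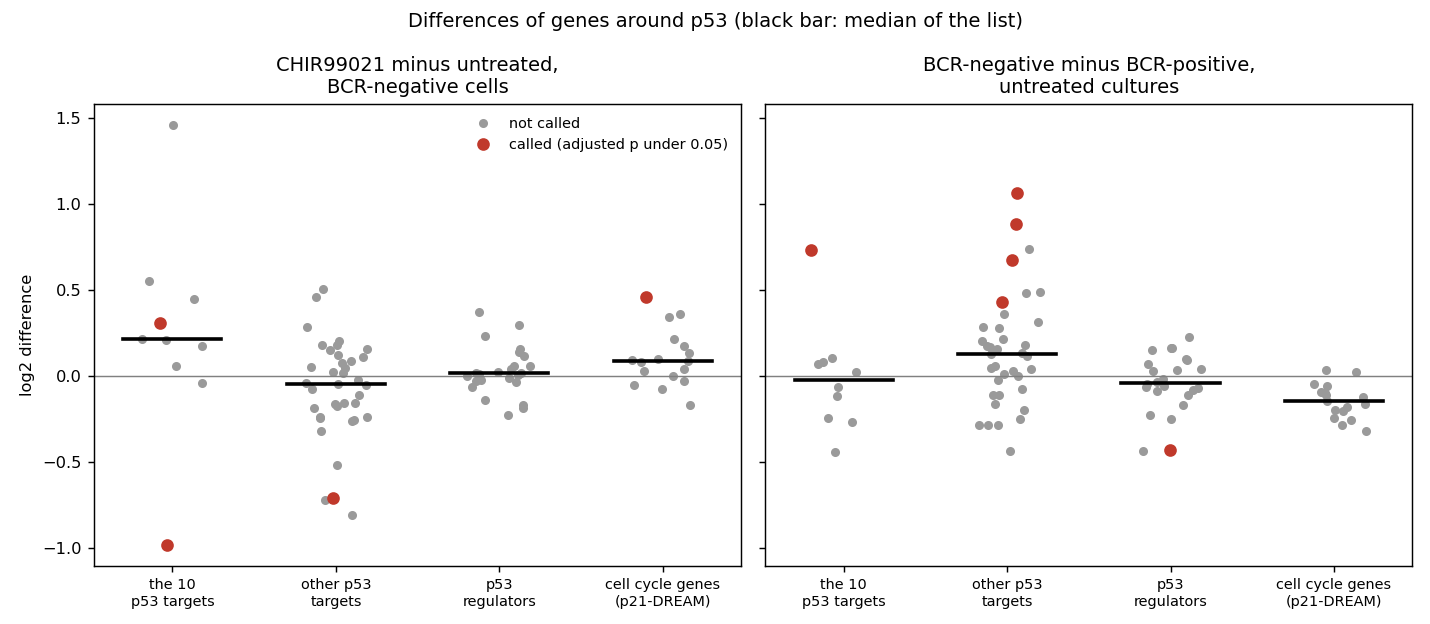
Log2 differences of the 10 p53 target genes and of the 3 lists of pathway genes. The comparisons shown are CHIR99021 over untreated in BCR-negative cells and BCR-negative over BCR-positive cells in untreated cultures. There is 1 point per gene, with the list median as a bar and called genes marked. For CHIR99021 in BCR-negative cells the medians are 0.21 for the 10 target genes, -0.05 for 37 other targets, 0.01 for 24 regulators and 0.09 for 17 cell cycle genes.

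Markers of cell types were read beside these results. With CHIR99021 all 5 B-cell markers had negative differences in both populations, with medians of -0.33 in BCR-negative and -0.30 in BCR-positive cells, and Cd79b fell in BCR-negative cells by 0.33 (adjusted p = 0.0240). The log2 summed level of the B-cell markers was 12.41 to 12.99 in BCR-negative and 12.35 to 12.91 in BCR-positive cells with CHIR99021, against 12.98 to 13.30 and 12.89 to 13.12 in the untreated groups. The B-cell marker Ms4a1 was dim, at 3.03 to 3.92. Of 5 T-cell markers 1 was called with BCR loss in untreated cultures, where 4.2% of all genes were called. Cd2, at 7.32 to 10.33 over the arrays, rose by 0.99 (adjusted p = 0.0201). Cd3e stayed at 4.95 to 5.18, Cd3d at 3.69 to 4.03, Cd3g at 3.70 to 4.06 and Thy1 at 4.44 to 4.65 on all arrays. The summed T-cell level was 9.06 to 10.42 in untreated BCR-negative cells, against 8.12 to 9.84 in untreated BCR-positive cells. This sum adds linear signals, so most of it is Cd2, and it does not measure the number of T cells.

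Of 5 myeloid markers, Lyz2 rose with CHIR99021 in BCR-negative cells by 0.46 (adjusted p = 0.0388), where 3.68% of all genes were called. The 5 differences ran from -0.59 to 0.46 and 3 of them were negative. Adgre1 stayed at 3.49 to 3.64. The summed myeloid level was 7.55 to 8.73 in BCR-negative cells with CHIR99021, against 7.70 to 9.02 in untreated BCR-negative cells. Of 2 erythroid markers, Epor fell there by 0.35 (adjusted p = 0.0360), with a summed level of 5.33 to 5.47, against 5.53 to 5.68 in untreated BCR-negative cells. None of 4 NK-cell or 6 stroma markers passed in the 4 comparisons. The summed NK-cell level was 5.79 to 6.44 and the summed stroma level 8.51 to 9.59 in BCR-negative cells with CHIR99021, against 5.77 to 6.51 and 9.24 to 9.75 in untreated BCR-negative cells. In the CHIR99021 difference averaged over both populations, 3 of 5 B-cell markers (Cd79b, Pax5 and Ebf1), the erythroid Epor and the stroma marker Pecam1 fell. The myeloid Csf1r rose by 0.66 (adjusted p = 0.0417), but 3 of the 5 myeloid markers were negative, the lowest at -0.50. That comparison called 7.38% of all genes. In the averaged BCR difference, where 6.63% of all genes were called, Cd2 rose by 0.73 (adjusted p = 0.0129) and Pecam1 by 0.54 (adjusted p = 0.0381). The part of these markers in the results was not tested.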

How the data were processed

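Per the submitters' processing notes, the authors made the deposited log2 values with RMA in Affymetrix Power Tools, which corrects background, normalizes between arrays and summarises probes per probe set. No version is named there. There were 35556 probe sets, of which 21218 had 1 gene symbol in the platform annotation, 1881 had several and 12457 were not listed there. Symbols were matched by Entrez identifier to RefSeq GRCm38.p6 (21185 matched, 0 changed). Of several probe sets of a gene, the one with the highest mean over the 12 arrays was kept, leaving 18820 genes. Groups and lymphomas came from the sample titles.

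limma 3.58.1 in R 4.3.3 was fitted to all 12 arrays with group and lymphoma as terms and empirical Bayes moderation, and p-values were adjusted by Benjamini-Hochberg over 18820 genes. Intervals are limma's 95% intervals. The lymphoma pairs the arrays, per the labels. Deviations of arrays of the same lymphoma correlated at 0.813 to 0.907 in 18 pairs. The p-values and SEs rest on 1 residual spread per gene, pooled over the 4 groups with 6 residual degrees of freedom before moderation. They therefore do not measure the spread of a single comparison among its 3 lymphomas. The fit treats both populations of a culture as independent, and the number of lymphomas limits the precision. The fit was tested on simulated data. All 10 target genes are named. From the other lists, called genes are named in every comparison and the 2 smallest p-values in all but the averaged ones, with up to 2 genes per list by difference between lymphomas. The members and lists were chosen with earlier results of these data known. Alternatives left out the replicate block, arrays, lymphomas or dim genes, averaged probe sets, rescaled the arrays or changed the moderation.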

Additional observations from a re-analysis of the deposited data

Results flagged for a closer look

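For 3 genes of the list of other p53 targets, the effect of BCR loss had one sign in every lymphoma of untreated cultures and the opposite sign in every lymphoma of CHIR99021 cultures. The direct test of the difference, the limma interaction, was not passed by any of them, with an adjusted p of 0.928 each. Fas and Eda2r were dim, at 3.12 to 3.40 and 3.63 to 4.01 over the 12 arrays, below the 30th percentile of all genes by their means. Fas, a death receptor, differed with BCR loss by -0.04, -0.00 and -0.09 with CHIR99021, against 0.26, 0.04 and 0.06 in untreated cultures (lymphomas 2564, 2646 and 2676), and its interaction was -0.16. Eda2r, a receptor of the TNF family, differed by -0.05, -0.08 and -0.12 with CHIR99021, against 0.05, 0.29 and 0.04 in untreated cultures, and its interaction was -0.21. Ckap2, a spindle-associated protein, differed by 0.06, 0.18 and 0.12 with CHIR99021, against -0.28, -0.33 and -0.24 in untreated cultures, and its interaction was 0.40. Seen the other way on the same arrays, CHIR99021 differences of Fas were -0.15, -0.03 and -0.06 in BCR-negative cells and 0.15, 0.01 and 0.08 in BCR-positive cells. Those of Eda2r were -0.06, -0.33 and -0.10 in BCR-negative cells and 0.04, 0.04 and 0.06 in BCR-positive cells. None of the 10 p53 target genes showed such opposite signs.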

How the results depend on the processing

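No value changed sign where it was called. Without the replicate block, none of the 10 genes was called in any comparison (0 for BCR loss in untreated cultures, 0 for CHIR99021 in BCR-negative cells), against 1 and 2 with lymphoma as the block. With a random replicate block, BCR loss in untreated cultures gave 0 and CHIR99021 in BCR-negative cells gave 1. With only the arrays compared, BCR loss in untreated cultures gave 0, CHIR99021 in BCR-negative cells gave 1 and CHIR99021 in BCR-positive cells gave 1. CHIR99021 in BCR-negative cells gave 4 after array medians were subtracted and 1 after cyclic loess. CHIR99021 in BCR-positive cells gave 1 without dim genes and 1 with trend and robust moderation. Averaging, added after seeing the data, gave 5 for CHIR99021 and 1 for BCR loss, against 0 for BCR loss in CHIR99021 cultures. The averaged CHIR99021 comparison gave 0 without the replicate block and 1 with the random block. Leaving out a lymphoma or an array gave 0 to 2 for BCR loss in untreated cultures, 0 to 2 for CHIR99021 in BCR-negative cells, 0 to 1 for CHIR99021 in BCR-positive cells, and 0 for BCR loss in CHIR99021 cultures and for the interaction. Without the replicate block the adjusted p of Trp53inp1 was 0.476 for BCR loss in untreated cultures and 0.297 for CHIR99021 in BCR-negative cells. The cause was not tested. Perp was left out by the filter on dim genes, so its value there is missing. Genes of the other lists were not refitted under other settings.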

Other observations

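Trp53inp1 was higher with BCR loss and lower with CHIR99021, and some genes of the other lists had differences of the same signs. They were picked after their values were seen, and the comparisons share the untreated BCR-negative arrays. Btg2 differed by 1.06 (adjusted p = 0.0464) with BCR loss in untreated cultures and by -0.72 (adjusted p = 0.143) with CHIR99021 in BCR-negative cells, where the groups did not overlap either. Gadd45a differed by 0.88 (adjusted p = 0.0280) and -0.71 (adjusted p = 0.0495) in the same comparisons. Cd2 differed by 0.99 (adjusted p = 0.0201) and -0.64 (adjusted p = 0.0599). It was read above in the list of T-cell markers, of which the other 4 were not called in either comparison. Tigar had the opposite signs, at -0.44 (adjusted p = 0.0625) and 0.46 (adjusted p = 0.0583).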
